A study of Zea mays with 18 samples.

Results

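Transcript levels of 5 maize genes that set how far the branches and spikelets of an inflorescence grow were followed in young and older ears of transgenic and control plants. The genes were ramosa1 (ra1, GRMZM2G003927), ramosa3 (ra3, GRMZM2G014729), branched silkless1 (bd1, GRMZM2G307119), indeterminate spikelet1 (ids1, GRMZM5G862109) and sister of indeterminate spikelet1 (sid1, GRMZM2G176175). They were chosen by name for their known role, and are 5 of the 76612 identifiers in the expression table. All plants were of the elite hybrid NN6306 and grew in the field in Illinois with no special treatment. Transgenic events 1 and 2 carried the Arabidopsis homeodomain-leucine zipper gene ATHB17 behind the rice actin promoter, which is active in most tissues, and make a shortened protein, ATHB17Δ113. The ATHB17 vector also carried CP4 EPSPS, a glyphosate tolerance marker. Control plants were labelled WT and lacked ATHB17. The paper states that any insect protection and glyphosate tolerance traits were the same in test and control entries. Ear inflorescence was collected at stage V16 and ear at stage R1, the silking stage, so that tissue and stage change together. Each of the 6 combinations of genotype and tissue had 3 biological replicates, 18 samples in all, and the replicate spread given below is that between these samples.

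The maize ear starts as an inflorescence meristem that gives off spikelet pair meristems, spikelet meristems and floral meristems in turn, and a meristem is determinate when it stops after a fixed set of organs. The ramosa genes hold the first branches short. RA1 is a zinc finger transcription factor, and RA3 is a trehalose-6-phosphate phosphatase that acts ahead of ra1. BD1, an ERF-type transcription factor, gives the spikelet meristem its identity and keeps further branches from forming in the spikelet. IDS1 and SID1 are paralogous AP2-type transcription factors that limit the number of florets in a spikelet and are targets of the microRNA miR172.

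Values are normalized read counts, that is, whole reads multiplied by 1 scale factor for each sample. Reads assigned to transcripts numbered 27293941 to 52655576 per sample, and a read that matched several transcripts was counted on each of them. With such reads counted more than once, these totals exceed the numbers of reads per sample that the paper gives. Reads common to the paralogs ids1 and sid1 could have entered both values. Normalized counts depend on transcript length, so levels are compared here between samples and not between genes. Summed floral marker counts separated the labelled tissues and summed meristem counts did not, while single genes in each list varied. The ear spikelet and carpel gene zag2 had 3152.68 to 8792.93 normalized counts in ear inflorescence and 13489.37 to 16912.43 in ear, while the summed normalized count of 5 meristem genes (kn1, td1, lg3, fea2 and ba1) overlapped between tissues, with 6231.9 to 16599.6 in ear inflorescence and 7035.2 to 8996.2 in ear. Over 5 floral organ genes (zag1, zag2, si1, zmm16 and zap1) the summed normalized count was 6123.8 to 12982.8 in ear inflorescence and 17675.7 to 22250.4 in ear, and over 4 leaf genes (pep1, ppdk1, me3 and ssu1) it was 1823.4 to 3181.5 and 4374.5 to 6238.7. zag2 averaged 15440 of the mean floral sum of 20230 in ear, and kn1 8001 of the mean meristem sum of 10140 in ear inflorescence. Of the floral genes, si1 averaged less in ear (445.2 in ear inflorescence, 217.5 in ear) and zmm16 was similar (577.1 and 540.5). Of the meristem genes, ba1 did not overlap between tissues (130.99 to 560.8 and 2.52 to 16.89), and td1 averaged more in ear (414.5 and 655.7). The anther gene ms26 stayed at or below 4.16 in every sample and was at 0 in event 2 ear inflorescence. In a bulk sample, fewer cells of a type and less RNA per cell cannot be told apart. Ear inflorescence samples of event 1 (replicate 1) and event 2 (replicate 2) stood apart in several members. Tests between tissues that rest on them are given with and without them.

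ra1 was read at a low level in ear inflorescence and was not read at all in ear. Control ear inflorescence had 9.81, 9.31 and 0.8 normalized counts of ra1, event 1 had 3.47, 8.53 and 3.63, and event 2 had 0.92, 17.34 and 7.08. These rest on 73 reads in 9 samples, with between 1 and 15 reads in each. The exact Poisson 95% interval, which covers counting error only, was 0.02532 to 5.572 reads for the samples with 1 read and 8.395 to 24.74 reads for the sample with 15. The lowest samples, control replicate 3 and event 2 replicate 1, are therefore not separated from those with 5 reads by counting error alone. All 9 ear samples had 0 reads, which allows up to 3 reads per sample, or 2.4 to 4.22 normalized counts depending on the sample's scale factor. Against that floor of 3 reads per library, mean ra1 was at least 1.87-fold higher in ear inflorescence than in ear in control, at least 1.35-fold in event 1 and at least 2.72-fold in event 2. These bounds lean on single samples: without replicate 2 of ear inflorescence the bound in event 2 was 1.29-fold, and in event 1 the mean was then 0.921 of the floor, which leaves no bound.

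ra3 was lower in ear than in ear inflorescence. Ear inflorescence had 46.27, 64.46 and 28.62 normalized counts of ra3 in control, 20.79, 48.33 and 43.51 in event 1, and 39.5, 127.19 and 41.88 in event 2. Ear had 7.03, 21.12 and 8.45 in control, 19.02, 12.59 and 8.43 in event 1, and 19.03, 17.89 and 12.79 in event 2. Within each genotype every ear sample lay below every ear inflorescence sample, and across genotypes the ranges met only where event 1 ear inflorescence replicate 1 fell just under control ear replicate 2. The control mean was 46.4 ± 17.9 (SD, n = 3) in ear inflorescence and 12.2 ± 7.76 (SD, n = 3) in ear, a ratio of 3.81. The ratio of ear inflorescence to ear was 2.81 in event 1 and 4.20 in event 2. Without event 2 ear inflorescence replicate 2 the ratio in event 2 was 2.46, and without control ear replicate 2 that in control was 6.00. Over all identifiers, all 3 ear samples lay below all 3 ear inflorescence samples for 26.4% in control, 22% in event 1 and 17.7% in event 2.

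bd1 followed the same order. Its normalized counts in ear inflorescence were 90.43, 121.05 and 87.45 in control, 54.75, 146.9 and 128.13 in event 1, and 97.37, 220.85 and 98.51 in event 2. In ear they were 22.25, 67.32 and 54.89 in control, 23.77, 31.47 and 33.73 in event 1, and 35.69, 46.97 and 39.98 in event 2. Each genotype again had every ear sample below every ear inflorescence sample, while event 1 ear inflorescence replicate 1 lay under 2 of the 3 control ear samples. Mean bd1 in ear inflorescence was 2.07 times that in ear in control, 3.71 times in event 1 and 3.40 times in event 2, or 2.4 times in event 2 without ear inflorescence replicate 2.

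ids1 differed from these 3 genes, with more normalized counts in ear under the deposited scale factors, a difference that is lost when samples are scaled to their assigned reads. Ear inflorescence had 635.82, 531.47 and 581.17 in control, 695.13, 526.93 and 632.17 in event 1, and 701.81, 432.45 and 569.26 in event 2. Ear had 759.01, 891.03 and 746.36 in control, 742.87, 849.81 and 742.07 in event 1, and 824.34, 877.8 and 778.86 in event 2. All 9 ear samples lay above all 9 ear inflorescence samples with the deposited scale factors, as they did for 11.4% of identifiers. The ratio of ear to ear inflorescence was small, 1.37 in control, 1.26 in event 1 and 1.46 in event 2.

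sid1 had normalized counts of 225.73, 224.91 and 287.8 in control ear inflorescence, 336.82, 204.71 and 206.7 in event 1 and 321.51, 203.51 and 180.51 in event 2. In ear it had 350.22, 347.17 and 348.37 in control, 288.83, 313.49 and 326.06 in event 1, and 413.95, 332.11 and 314.26 in event 2. The tissues overlapped in both events, through replicate 1 of each event's ear inflorescence, and did not overlap in control, where 22.7% of identifiers had all 3 ear samples above all 3 ear inflorescence samples. With the deposited scale factors, mean sid1 in ear was 1.42 times that in ear inflorescence in control, 1.24 times in event 1 and 1.5 times in event 2, and the scaling to assigned reads removes this difference too. The ratio of ids1 to sid1 normalized counts within a sample was 2.48 ± 0.436 (SD, n = 9) in ear inflorescence and 2.39 ± 0.255 (SD, n = 9) in ear, so the pair kept much the same proportion in both tissues, and this ratio does not depend on how samples were scaled to each other.

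**Figure D1:**
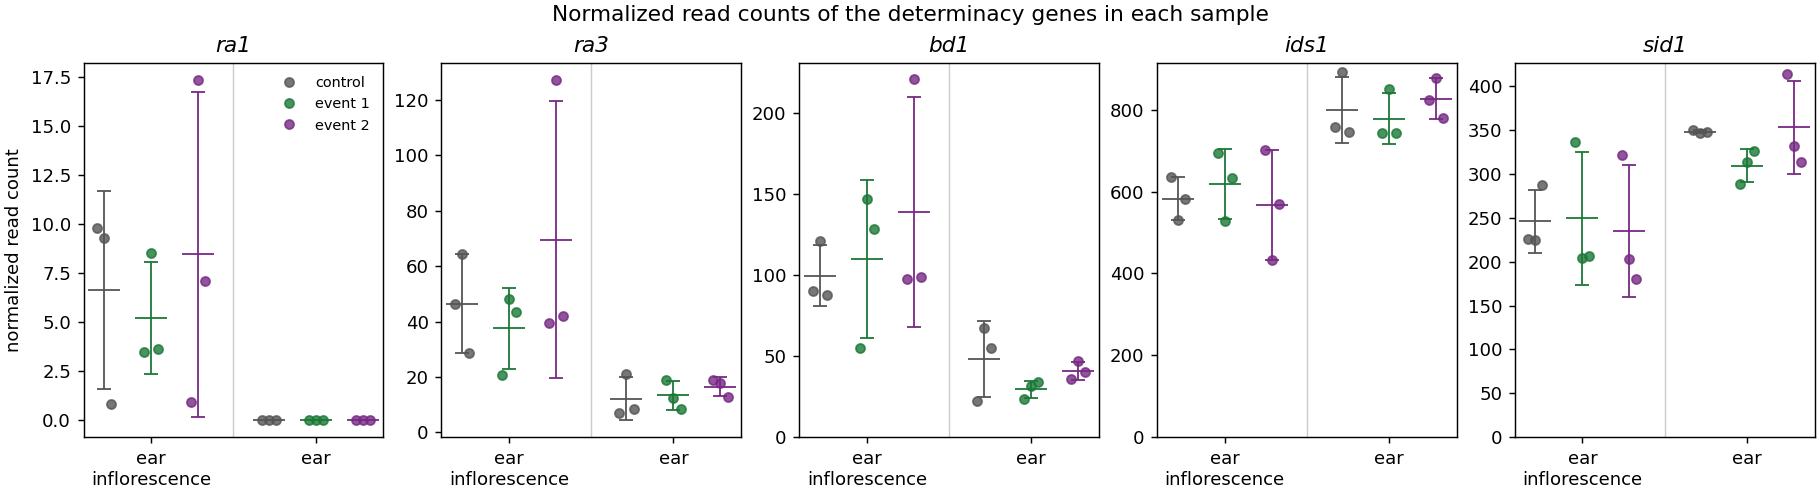
Normalized read counts (vertical axis, a separate scale for each gene) of ra1, ra3, bd1, ids1 and sid1 in ear inflorescence (left of the grey line) and ear (right); each point is 1 sample, the wide bar is the mean of 3 replicates and the whiskers are 1 SD. ra1 had 0 reads in all 9 ear samples, ra3 and bd1 were lower in ear within each genotype, and ids1 was higher in all 9 ear samples, a difference that is lost when samples are scaled to their assigned reads.

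Ear was first tested against ear inflorescence within each genotype. The test was limma on log2 values (normalized count + 1), fitted to all identifiers and all 18 samples, and log2 fold changes below are on that scale, which understates changes of genes with few reads. A gene was called when its raw p did not exceed 0.0001, the cutoff used in the study, and p-values adjusted by Benjamini and Hochberg's procedure over all identifiers are given beside the calls. By the raw threshold 0 of 5 members were called in control, event 1 or event 2, where 13.8%, 14.8% and 7.87% of all identifiers were. At an unadjusted p under 0.05 limma found 5 members in control, 3 in event 1 and 5 in event 2. The share of all identifiers at that level is not given here. It is no smaller than the share with an adjusted p under 0.05. That share was 20.1% lower and 17.2% higher in ear in control, 20.2% and 18.3% in event 1, and 11.9% and 12.4% in event 2. On the reads recovered from the table, the raw threshold called 2, 1 and 3 members by edgeR, which called 20.8%, 21.1% and 13.2% of identifiers, and 0, 1 and 2 by DESeq2, which called 18.6%, 18.9% and 11.2%. For single genes, 3 samples against 3 cannot give an exact two-sided permutation p under 0.1.

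By the adjusted p under 0.05, ra1, ra3 and bd1 were lower in ear in each genotype, 3 of 5 members where 20.1% of identifiers in control, 20.2% in event 1 and 11.9% in event 2 were lower. For ra3 control plants had a log2 fold change of -1.92 (SE 0.49, limma adjusted p = 0.0041), event 1 one of -1.41 (SE 0.49, adjusted p = 0.028) and event 2 one of -1.81 (SE 0.49, adjusted p = 0.01). For bd1 the control value was -1.16 (SE 0.40, limma adjusted p = 0.027), that of event 1 was -1.75 (SE 0.40, adjusted p = 0.0017) and that of event 2 was -1.64 (SE 0.40, adjusted p = 0.005). For ra1 the limma adjusted p in the same order was 0.0059, 0.0058 and 0.0061. The spread behind these values also counts ear samples that were all at 0. With limma fitted to the groups compared alone, the adjusted p of ra1 was 0.059 in control and 0.11 in event 2, and stayed under 0.05 in event 1. The fitted fold change of ra1 depends on the constant added before the log, since ear held no reads, and the lower bounds above stand in its place. Without event 2 ear inflorescence replicate 2, the highest sample in all 3 genes, the adjusted p in event 2 was 0.058 for ra1, 0.088 for ra3 and 0.056 for bd1, and 0 of the 5 members then passed in that genotype, with log2 fold changes of -1.26 for ra3, -1.25 for bd1, 0.39 for ids1 and 0.54 for sid1; without event 2 ear replicate 3 the number was 3. In control 4 members passed, but 2 did without ear replicate 1, ear inflorescence replicate 1 or ear inflorescence replicate 3, and 1 did without ear inflorescence replicate 2. The log2 fold change of bd1 in control was -0.69 without ear replicate 1. In event 1 from 2 to 4 members passed over the fits that left out 1 sample. The number was 4 without event 1 ear inflorescence replicate 1, with log2 fold changes of -1.78 for ra3 and -2.19 for bd1.

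The AP2-type pair passed the adjusted threshold less evenly. Higher values in ear were found for 17.2% of identifiers in control, 18.3% in event 1 and 12.4% in event 2 by the same rule. For ids1 control plants had a log2 fold change of 0.45 (SE 0.16, limma adjusted p = 0.034), event 1 one of 0.34 (SE 0.16, adjusted p = 0.11) and event 2 one of 0.57 (SE 0.16, adjusted p = 0.015). For sid1 the control value was 0.51 (SE 0.21, limma adjusted p = 0.064), that of event 1 was 0.35 (SE 0.21, adjusted p = 0.21) and that of event 2 was 0.62 (SE 0.21, adjusted p = 0.037). The event 1 values also turn on 1 sample. Without event 1 ear inflorescence replicate 1 they were 0.43 for ids1 (limma adjusted p = 0.067) and 0.585 for sid1 (limma adjusted p = 0.039). Neither gene's difference between tissues was shown to differ between an event and control, since the limma tests of that difference gave raw p-values of 0.59 to 0.71.

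**Figure D2:**
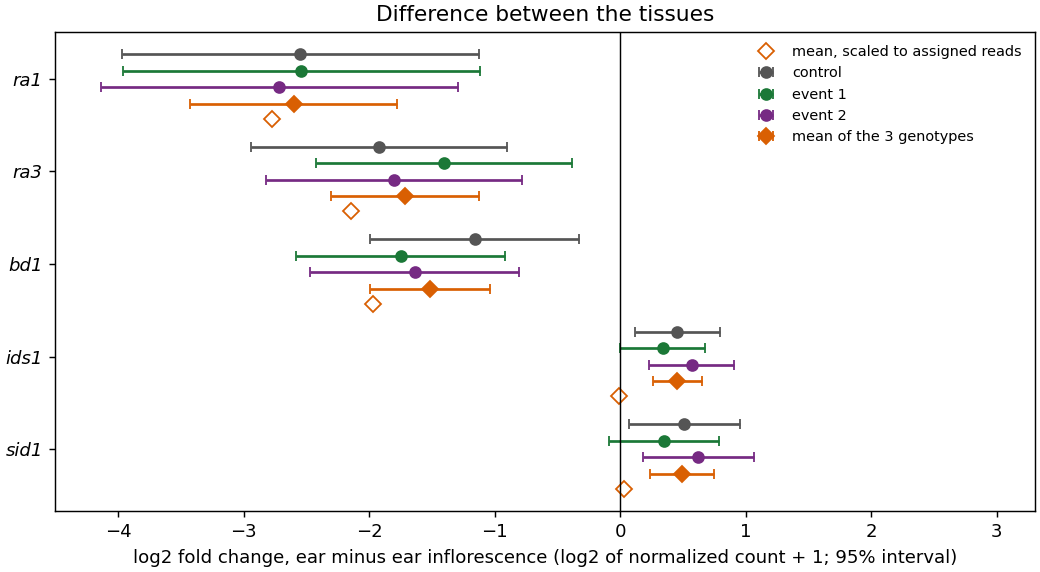
Log2 fold change of each gene, ear minus ear inflorescence (horizontal axis), with its 95% interval, in control, event 1 and event 2 and as the mean of the 3 genotypes; open diamonds are the mean after scaling samples to their assigned reads. ra1, ra3 and bd1 were below 0 under both scalings, while ids1 and sid1 were at 0.45 and 0.49 with the deposited scale factors and at -0.01 and 0.03 with the other scaling; the position of ra1 depends on the constant added before the log.

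The same fit was also read as the tissue difference averaged over the 3 genotypes, a contrast added after the single genotypes had been seen. It called 29% of all identifiers at the raw threshold and called 3 of the 5 members: ra1 (limma adjusted p = 1.3e-05), ra3 (log2 fold change -1.71, SE 0.28, adjusted p = 3.6e-05) and bd1 (log2 fold change -1.52, SE 0.23, adjusted p = 1.4e-05). The other two missed it, ids1 with a log2 fold change of 0.45 (SE 0.09, limma adjusted p = 0.0004) and sid1 with 0.49 (SE 0.12, adjusted p = 0.0019). By the adjusted p under 0.05 all 5 passed, 3 lower where 28.9% of identifiers were and 2 higher where 23.3% were. The members' median log2 fold change was -1.52, or -0.95 with ra1 at its lower bound, against -0.09 over all identifiers. Without event 2 ear inflorescence replicate 2 the log2 fold changes were -1.53 for ra3, -1.39 for bd1, 0.39 for ids1 and 0.47 for sid1, and without event 1 ear inflorescence replicate 1 they were -1.83, -1.66, 0.48 and 0.57, with all 5 adjusted p-values under 0.05 in both fits. ra3 missed the raw threshold in 3 of the 18 fits that left out 1 sample (control ear replicate 3, control ear inflorescence replicate 1 or control ear inflorescence replicate 2), while without event 2 ear inflorescence replicate 1 all 5 members passed it.

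The direction of ids1 and sid1 rests on how the tissues are put on a common scale. Summed normalized counts were higher in every ear sample than in any ear inflorescence sample, and dividing instead by each sample's assigned reads moved the median log2 fold change of the 39715 identifiers with a mean of at least 10 from 0.01 to -0.44 in the averaged contrast. Calls moved from 10919 higher and 11284 lower to 6434 higher and 17589 lower. Under that scaling ids1 had a log2 fold change of -0.01 (limma adjusted p = 0.95) and sid1 of 0.03 (adjusted p = 0.87), and neither passed in any genotype, whereas ra3 was at -2.15 and bd1 at -1.97 and both stayed past the raw threshold. Relative to the median of those 39715 identifiers, ids1 was 0.44 higher with the deposited scale factors and 0.43 higher with the other scaling, and sid1 was 0.48 higher with both. Quantile normalization, edgeR and DESeq2 kept ids1 and sid1 above 0 in the averaged contrast.

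Control plants were next set against each event, to ask whether ATHB17Δ113 changed the determinacy genes. No member was called in ear inflorescence by limma, edgeR or DESeq2, in comparisons that called few identifiers at all, 0.0574% for event 1, 0.0666% for event 2 and 0.0653% for both events together. Over the 10 comparisons between genotypes, edgeR called 0.0875% to 0.604% of identifiers and DESeq2 0.0117% to 0.211%. No member was called in ear by any of the 3 tools, where 0.128%, 0.0444% and 0.0705% of identifiers were. With limma, 0 members had an unadjusted p under 0.05 in any of these comparisons, and ra1 could not be compared in ear, where both groups had 0 reads. DESeq2 also had 0 at that level, and edgeR had 1, bd1 in ear of event 1 (edgeR adjusted p = 0.67).

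Intervals show what differences these samples leave room for. Over both events and both tissues, the 95% intervals of the log2 difference from control lay between -0.40 and 0.42 for ids1 and between -0.61 and 0.45 for sid1. They were wider for the genes with fewer reads, between -1.39 and 1.21 for bd1, between -1.33 and 1.57 for ra3, and between -1.43 and 1.59 for ra1 in ear inflorescence alone. The interval of ra1 is too narrow, because the fit shares 1 estimate of the spread over all groups and every ear sample was at 0. A 2-fold difference lies inside the widest of these intervals for ra1, ra3 and bd1, and outside all of them for ids1 and sid1.

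The largest differences from control were in bd1 and ra3. In ear, bd1 averaged 48.2 ± 23.3 (SD, n = 3) in control plants against 29.7 ± 5.22 (SD, n = 3) in those of event 1, a log2 difference of -0.56 (SE 0.40, limma adjusted p = 0.9). Without control ear replicate 1 the difference was -1.03 (limma adjusted p = 0.56), and without control ear replicate 2 it was -0.25. In the same groups no leaf, meristem or floral gene was called by limma, and the sums of each list did not overlap. Summed leaf gene counts were 4839.3 to 5268.5 in control ear and 5927.5 to 6238.7 in event 1 ear. Summed counts of 5 meristem genes were 7770.4 to 8996.2 and 7035.2 to 7617.7. Those of 5 floral genes were 18454.2 to 20365.8 and 20868.8 to 22250.4. The part of these genes in the bd1 values was not tested. ra3 in ear was 16.6 ± 3.32 (SD, n = 3) in event 2 against 12.2 in control, a log2 difference of 0.55 (SE 0.49, limma adjusted p = 1). In ear inflorescence of event 2, ra3 was 0.43 (SE 0.49) and bd1 was 0.38 (SE 0.40) above control on the log2 scale, and without replicate 2 of that group the differences were -0.11 and -0.01. sid1 was the one member whose groups did not overlap, with all 3 event 1 ear samples below all 3 control ear samples, which 4.88% of identifiers also showed; its log2 difference was -0.17 (SE 0.21).

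**Figure D3:**
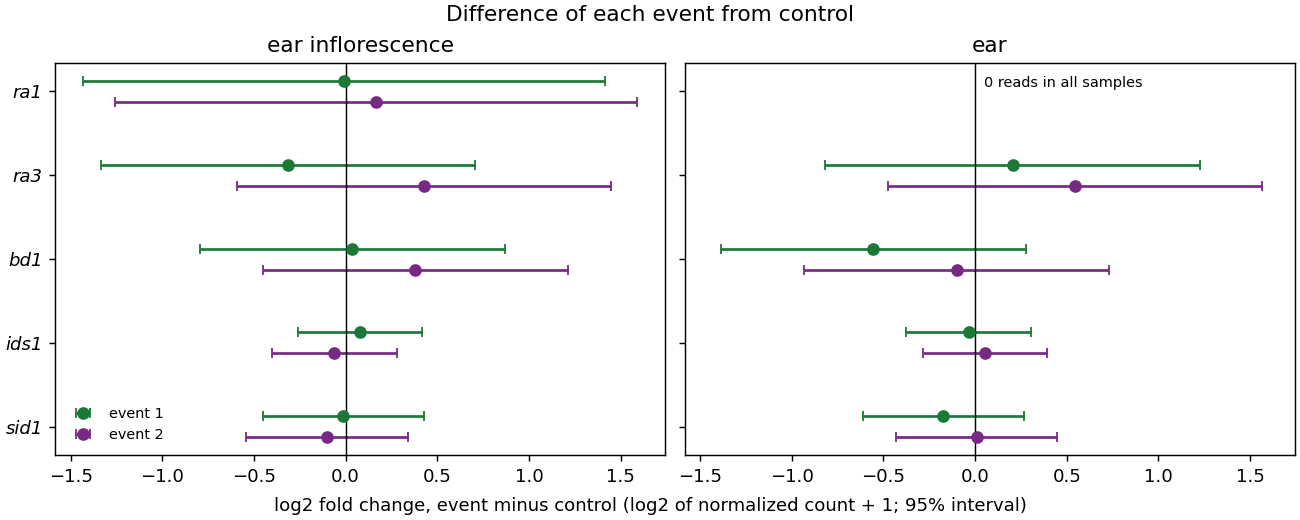
Log2 difference of each event from control (horizontal axis) with its 95% interval, in ear inflorescence (left) and ear (right), for the 5 genes. Every interval includes 0, and intervals are narrowest for ids1 and widest for ra1, which had 0 reads in ear and whose interval is too narrow for that reason.

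The events were also compared with each other, and each event's effect was compared between tissues. No member was called between events in ear inflorescence (0.064% of identifiers called) or in ear (0.0548%) by limma, edgeR or DESeq2. The smallest limma p in this family was that of ra3 in ear inflorescence, where event 1 averaged 37.5 ± 14.7 (SD, n = 3) and event 2 averaged 69.5 ± 49.9 (SD, n = 3), a log2 difference of -0.74 (SE 0.49, limma adjusted p = 0.9; edgeR adjusted p = 0.38), or -0.20 without event 2 ear inflorescence replicate 2. No member's event effect differed between tissues at the raw threshold by any of the 3 tools, in tests that called 0.0196% of identifiers for event 1 and 0.0117% for event 2. With limma or DESeq2 no member had an unadjusted p under 0.05 in these comparisons. By edgeR ra3 had an unadjusted p of 0.0047 between events in ear inflorescence. For bd1 the edgeR test of the event 1 effect between tissues gave 0.044.

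Within ear inflorescence, samples of 1 genotype differed widely in ra1, ra3 and bd1. Event 2 replicate 2 was the highest of the 9 samples in ra1, ra3 and bd1, at 2.45, 2.92 and 2.24 times the median of the 9, and the lowest in ids1. Event 1 replicate 1 was the lowest in ra3 and bd1 and the highest in sid1. The homeobox gene kn1 and the branching genes ba1 and ub2 were each highest in event 2 replicate 2 and lowest in event 1 replicate 1, with kn1 at 13902.02 and 4435.51 normalized counts. Of the other branching genes followed here, ub3 was 5th of the 9 in event 2 replicate 2 and lowest in event 1 replicate 1. spi1 was highest in event 2 replicate 2 and 8th in event 1 replicate 1. Of the other meristem genes, td1 was highest, fea2 was 2nd and lg3 was 4th in event 2 replicate 2. In event 1 replicate 1 td1 was 7th, fea2 was lowest and lg3 was 6th. rel2 ran the other way, lowest in event 2 replicate 2 and highest in event 1 replicate 1. The summed normalized count of the 5 meristem genes, among them kn1 and ba1, was 9045.2 to 10569.9 in control ear inflorescence, 6231.9 to 10703.5 in event 1 and 8623.8 to 16599.6 in event 2. The part of meristem content in the spread of ra1, ra3 and bd1 was not tested.

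Pairs of members were compared across the 9 ear inflorescence samples with exact permutation tests (two-sided, adjusted over 16 pairs, 10 in ear inflorescence and 6 in ear). Log2 levels of ra3 and bd1 went together (Pearson's r = 0.915, exact p = 0.00217, adjusted p = 0.0347; Spearman's rho = 0.833, exact p = 0.00827, adjusted p = 0.0661). ids1 went against ra3 (r = -0.822, exact permutation p = 0.0085, adjusted p = 0.0453; rho = -0.750, exact p = 0.0255, adjusted p = 0.068) and against bd1 (r = -0.826, exact permutation p = 0.00751, adjusted p = 0.0453; rho = -0.750, exact p = 0.0255, adjusted p = 0.068). Within genotypes, as deviations from the group means, r was 0.934, -0.815 and -0.832 for these 3 pairs. Without event 1 replicate 1 and event 2 replicate 2, the samples farthest from the median, r was 0.585, -0.379 and -0.485, so the 3 relations rest largely on those samples. ra1 and ra3 passed by rank alone (rho = 0.883, exact permutation p = 0.00308, adjusted p = 0.0492; r = 0.719, exact p = 0.0235, adjusted p = 0.0938). The 7 pairs not past the threshold by r had adjusted exact p-values of Pearson's r between 0.0938 and 0.161, and the 6 pairs in ear, which leave out ra1, between 0.108 and 0.938. The values share each sample's scale factor.

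**Figure D4:**
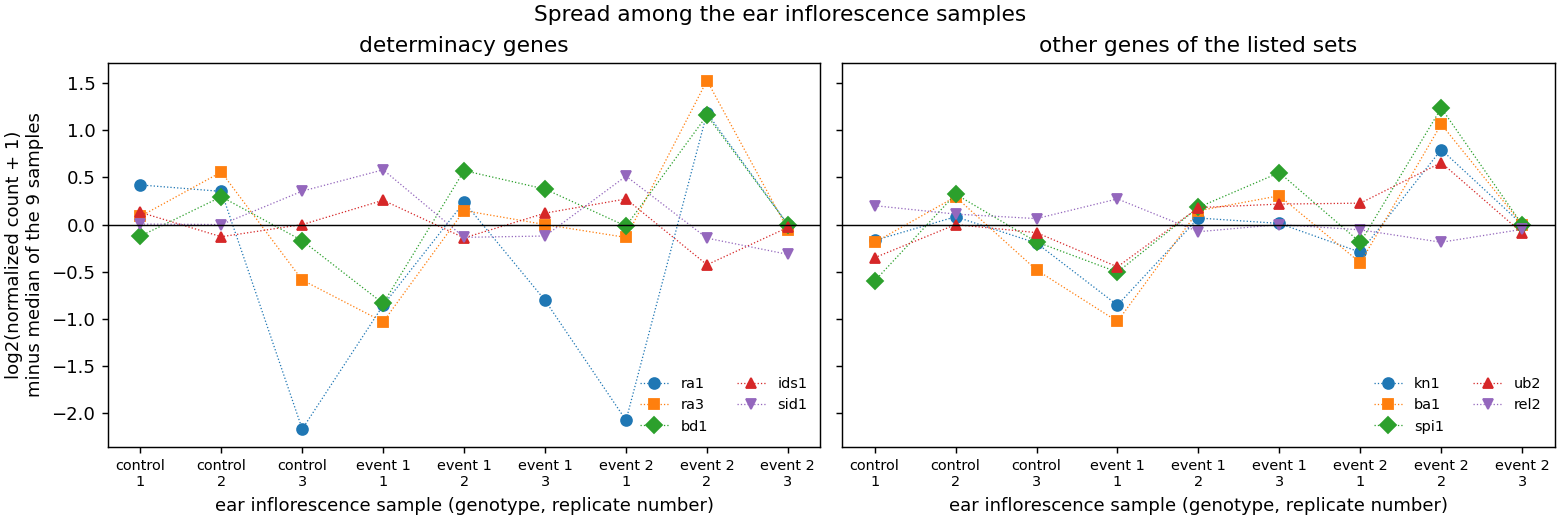
Level of each gene in each of the 9 ear inflorescence samples as the log2 difference from the median of the 9 (vertical axis), for the 5 determinacy genes (left) and for kn1, ba1, spi1, ub2 and rel2 (right); dotted lines join the points of a gene and imply no order of samples. Event 2 replicate 2 is the highest in ra1, ra3 and bd1 and the lowest in ids1, and event 1 replicate 1 is the lowest in ra3 and bd1.

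The rest of the determinacy and branching network was read from a list of 22 named genes, of which 12 could be matched to an identifier and the others were not analysed here. In the tissue difference averaged over genotypes, 7 of the 12 were called lower in ear and 1 was called higher. With the same scale factors 29% of all identifiers were called in either direction and 14.7% were called lower. Scaled to assigned reads, 9 of the 12 were called lower and 0 higher. That scaling also called more of all identifiers lower, as given above. With the deposited scale factors the median log2 fold change of the 12 genes was -0.85 against -0.09 over all identifiers. The largest falls among the 12 were those of ba1 and spi1. ba1, a basic helix-loop-helix regulator of axillary meristems, averaged 283 ± 124 normalized counts (SD, n = 9) in ear inflorescence and 8.93 ± 4.65 (SD, n = 9) in ear, a log2 fold change of -4.88 (SE 0.26, limma adjusted p = 1.8e-11). spi1, an auxin biosynthesis gene, averaged 60.4 ± 27.8 and 3.46 ± 3.24 (SD, n = 9).

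The remaining called genes changed less. The SBP-box gene ub2 fell by 2.26 on the log2 scale (SE 0.15, limma adjusted p = 5e-10) and its paralog ub3 fell by 0.97 (SE 0.15, adjusted p = 1.7e-05). The AP2-type gene gl15, which like ids1 and sid1 is a target of miR172, fell by 1.5 (SE 0.20, limma adjusted p = 4.1e-06), the kinase gene bif2 fell by 1.13 (SE 0.19, adjusted p = 5.7e-05), and rel2, whose protein is a co-repressor that binds RA1, fell by 0.72 (SE 0.08, adjusted p = 5e-07). The floral MADS-box gene zag1 rose by 0.63 (SE 0.09, limma adjusted p = 6.4e-06) with the deposited scale factors, and its value of 0.17 after scaling to assigned reads was not called. Within single genotypes the raw threshold called 4 of the 12 lower in control, 5 in event 1 and 3 in event 2, where 6.65%, 6.32% and 2.7% of identifiers were called lower.

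Between genotypes 0 of these 12 genes were called by limma or DESeq2, and edgeR called 1, ub2, for both events together against control in ear; from 0 to 5 of the 12 had an unadjusted limma p under 0.05 in a comparison. In ear of event 1, ub2, ub3, ba1, bif2 and spi1 were below control with an unadjusted limma p under 0.05, and the lowest limma adjusted p among these 5 was 0.095, for spi1. By edgeR, 2 of the 12 had an adjusted p under 0.05 in that comparison, ub2 (0.029) and spi1 (0.041). The shares of all identifiers at these levels are not given here, so whether these counts stand out cannot be told. The leaf, meristem and floral gene sums given above did not overlap between the same groups, and their part was not tested. Control ear had 856 ± 368 normalized counts of ub2 (SD, n = 3), event 1 ear 489 ± 97.5 (SD, n = 3) and event 2 ear 546 ± 83.2 (SD, n = 3), and the log2 difference of event 1 from control was -0.73 (SE 0.27, limma adjusted p = 0.49). ba1 averaged 13.2, 5.70 and 7.87 in the same 3 groups. spi1 averaged 6.10 in control ear and was at or under 3 reads in every event 1 ear sample.

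**Figure D5:**
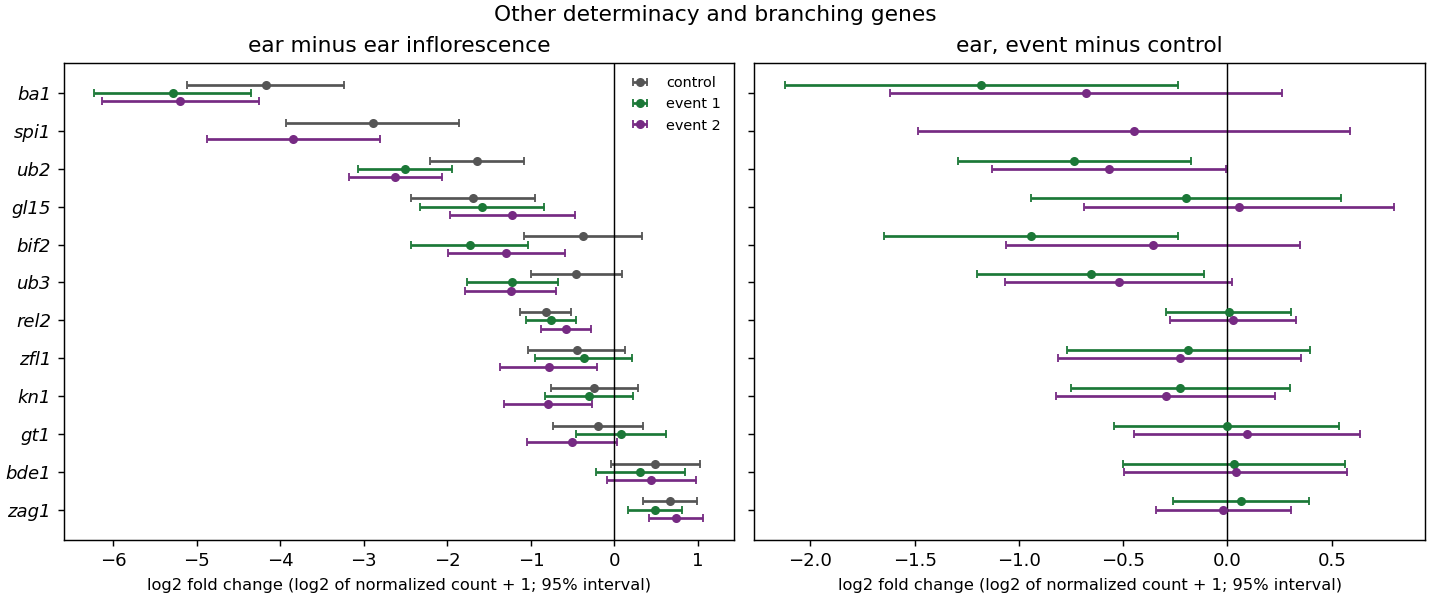
Log2 fold changes with 95% intervals of 12 other determinacy and branching genes, for ear minus ear inflorescence in each genotype (left) and for each event minus control in ear (right). ba1, spi1 and ub2 were lower in ear in each genotype; event 1 points of spi1 are left out because its event 1 ear samples were at or under 3 reads, and the position of zag1 above 0 at left depends on the deposited scale factors.

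The identifiers most like each member over all 18 samples were found by Pearson's r of log2 levels, leaving out identifiers whose mean normalized count was under 10, as a description. The 18 samples fall into 2 tissues, so a high r reflects that difference first. Genes with a symbol were also ranked separately, among 153 identifiers with 1 symbol each. For ra3 the nearest was the homeobox gene knox8 (GRMZM2G135447, r = 0.951), followed by GRMZM2G001139 (r = 0.945) and GRMZM2G126239 (r = 0.930). For bd1 the nearest were GRMZM2G026558 (r = 0.966), GRMZM2G438606 (r = 0.964) and GRMZM2G031724 (r = 0.962), and among identifiers with a gene symbol ub2 (r = 0.942), the SBP-box gene sbp2 (GRMZM2G168229, r = 0.939) and GRF1 (GRMZM2G034876, r = 0.935). For ra1 they were GRMZM2G425986 (r = 0.939), GRMZM2G028037 (r = 0.928) and GRMZM2G145332 (r = 0.928), and with a symbol ba1 (r = 0.888), sbp29 (GRMZM2G067624, r = 0.886) and met2 (GRMZM2G025592, r = 0.885). In that separate ranking, which left out knox8, the nearest to ra3 were sbp29, met2 and GRF1, with r of 0.870, 0.859 and 0.853.

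ids1 and sid1 had other neighbours than the ramosa genes and bd1. Nearest to ids1 were sfp2 (GRMZM2G080178, r = 0.927), GRMZM2G174537 (r = 0.924) and GRMZM2G090693 (r = 0.922), with AO1 (GRMZM2G141535, r = 0.873) and the lipoxygenase gene lox6 (GRMZM2G040095, r = 0.846) next among named genes. For sid1 r was lower throughout, 0.882 for GRMZM2G065989, 0.876 for GRMZM5G840505 and 0.867 for GRMZM2G051689. Among the identifiers with 1 symbol AO1 was nearest to sid1 (r = 0.815), ahead of COAC1 (GRMZM2G420119, r = 0.777) and csu861 (GRMZM2G001241, r = 0.770).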

How the data were processed

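RNA of 18 samples was sequenced in reads of 50 bases. The authors used CASAVA 1.8.2, mapped with Bowtie 0.12.8 to B73 transcriptome 5a, let a read count for each transcript matched unless these exceeded 10, and scaled samples by DESeq. What the authors deposited is this normalized signal per identifier. Division by each sample's scale factor (0.59 to 1.405) gave whole reads, within 0.05 reads, for 790845 of 790845 values under 300 reads. No column was left unused.

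limma 3.58.1 (R 4.3.3) was fitted to log2(normalized count + 1) with 6 group means and a variance trend (prior degrees of freedom 6.85), after a test on simulated data. Alternatives were a pseudocount of 0.1, a mean of at least 10, groups compared alone, a replicate block, quantile normalization, no moderation, edgeR 4.0.16 (quasi-likelihood, TMM) and DESeq2 1.42.0 (Wald) on recovered reads, and leaving out each sample. The contrast averaged over genotypes and the scaling to assigned reads were added after seeing the data. The floor was 3 reads per library.

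Members and lists were chosen with earlier results of these data known. Named genes are the members, the matched list genes and, for each member, the 3 most correlated identifiers and the 3 most correlated of those with 1 symbol. RefSeq's gene table for assembly Zm-B73-REFERENCE-NAM-5.0 gave names, and 18628 identifiers, all 5 members included, were among its synonyms. Pair tests used scipy 1.17.1, and figures matplotlib 3.10.9.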

Additional observations from a re-analysis of the deposited data

How the results depend on the processing

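Of 671 values of single members under other settings, 639 kept their direction and side of the raw threshold, 22 came to pass it, 4 no longer passed it and 6 changed sign. Scaling to assigned reads turned the tissue difference of ids1 to -0.010 in the averaged contrast, -0.053 in control and -0.23 in event 1, and that of sid1 to -0.22 in event 1; it shifts all genes alike within a sample. Leaving out event 2 ear inflorescence replicate 2 turned the event 2 difference in ear inflorescence, and over all fits without 1 sample it ran from -0.11 to 0.72 for ra3 and from -0.0091 to 0.58 for bd1. In the averaged contrast, members past the raw threshold went from 3 to 5 with edgeR or by the adjusted rule, and from 2 to 5 over the fits without 1 sample. In control they went from 0 to 2 with edgeR, 1 with scaling to assigned reads and 4 by the adjusted rule. In event 1 they went from 0 to 1 with a pseudocount of 0.1, the replicate block, scaling to assigned reads, edgeR or DESeq2, and to 3 by the adjusted rule. In event 2 they went from 0 to 1 with a pseudocount of 0.1, the replicate block or scaling to assigned reads, to 2 with DESeq2, 3 with edgeR and 5 by the adjusted rule, and from 0 to 1 over the fits without 1 sample. Members with an adjusted p under 0.05 went from 5 to 3 in the averaged contrast and in event 2 with scaling to assigned reads, from 4 to 2 in control with quantile normalization, and from 5 to 0 in event 2 with groups compared alone. Over the fits without 1 sample they were 1 to 5 in control, 2 to 4 in event 1 and 0 to 5 in event 2. Except where its construction shows it, the cause was not tested.

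Same-numbered samples did not pair: their deviations from group means correlated between -0.51 and 0.25 (median -0.002 over 45 pairs). All identifiers called fell from 10582, 11318 and 6033 to 5253, 1401 and 1029 in control, event 1 and event 2 with groups compared alone, and edgeR called 15925 and 10085 in control and event 2. In the 10 genotype comparisons no setting called a member. Identifiers called ranged from 1 to 463 over the settings other than leaving out 1 sample. ra1, at 1 to 15 reads a sample, is limited by depth.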
